A study of Homo sapiens with 4 samples.

Results

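The kallikrein genes are a family of secreted serine proteases that lie side by side on chromosome 19. They were taken from the gene table as the rows on that chromosome whose symbol starts with KLK and a digit, together with KLKP1. The rule found 7 of the 17141 genes in the table, in the order KLK1, KLK15, KLK3, KLK2, KLKP1, KLK4 and KLK14 along the chromosome. RefSeq places 16 such genes there, and the others were not analysed here. RNA of LNCaP cells was sequenced in 4 libraries. LNCaP is an androgen-sensitive human prostate cancer line that makes prostate-specific antigen. LNCaP-RRM2 cells were infected with a lentiviral vector encoding RRM2, the small subunit of ribonucleotide reductase, and kept as a stable line under puromycin, and LNCaP-EV cells carried the empty vector, with 2 libraries per group. Both groups were grown as the supplier recommends with no other treatment named, and whether a line came from 1 clone or from a pool is not stated. No source states whether separate cultures were used for each library, and the p-values therefore reflect only how far these samples spread, which could be technical.

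Kallikreins are made as inactive proenzymes and become active when another protease removes a short propeptide. In the prostate, luminal epithelial cells secrete them into seminal fluid, where KLK3, known as prostate-specific antigen, cleaves the semenogelins that hold the clot together. KLK3 and KLK2 are textbook androgen-induced genes with a response element close to each gene's start, and serine protease inhibitors of the serpin and Kunitz families restrain the active enzymes. The comparison asked how the transcripts of this cluster, and of the proteins that act on it, differed when RRM2 was overexpressed.

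The upstream sequences of KLK3 and KLK2 are shown because these neighbours resemble each other there, beside KLK4, whose RNA moved the other way. Each is the 250 bases before the gene's start in RefSeq (GRCh38.p14), read 5′ to 3′ on the gene's own strand, and capitals mark the match to the loose androgen response element GNACNNNNNGTNC, which is its own reverse complement. KLK3 (chr19:50854665-50854914, plus strand), KLK2 (chr19:50873189-50873438, plus strand) and KLK4 (chr19:50910739-50910988, minus strand) read:
KLK3: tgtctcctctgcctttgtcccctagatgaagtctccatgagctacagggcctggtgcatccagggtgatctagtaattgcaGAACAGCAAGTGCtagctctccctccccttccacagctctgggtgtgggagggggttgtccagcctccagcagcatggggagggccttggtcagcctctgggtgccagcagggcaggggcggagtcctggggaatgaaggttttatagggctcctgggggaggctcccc
KLK2: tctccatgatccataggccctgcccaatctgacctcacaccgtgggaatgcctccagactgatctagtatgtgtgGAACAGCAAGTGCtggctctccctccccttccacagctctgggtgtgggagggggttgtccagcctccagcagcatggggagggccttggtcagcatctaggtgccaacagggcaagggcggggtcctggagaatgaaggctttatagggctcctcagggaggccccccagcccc
KLK4: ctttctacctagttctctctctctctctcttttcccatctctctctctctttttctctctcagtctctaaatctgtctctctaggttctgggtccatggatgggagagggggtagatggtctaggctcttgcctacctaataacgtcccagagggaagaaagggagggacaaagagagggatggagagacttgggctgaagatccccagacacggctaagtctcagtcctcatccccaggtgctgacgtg
The match lay from -169 to -157 relative to the start in KLK3 and from -175 to -163 in KLK2, with the same letters in both. The windows of KLK4, KLK14 and KLK15 held no match. In the comparison below, KLK3 and KLK15 were called higher, KLK4 was called lower, and KLK2 was higher by less than the fold limit. Whether the match bears on these differences was not tested. Among all 35116 RefSeq promoters of the same length, 1421 (4.05%) held a match on either strand. The run GAACAGCAAGTGCT was taken by extending that match while KLK3 and KLK2 had the same letters, so its presence in both was set beforehand. It stood in 2 promoters, those of KLK3 and KLK2, and nothing is concluded from that count, as a longer run matches fewer promoters. The motif was chosen with the KLK3 promoter known, and a match in letters is not a measured site. Aligned with each other, the KLK3 and KLK2 windows were 90.8% identical over 196 bases. No stretch of the other member promoters in RefSeq (KLK4, KLK15 and KLK14) aligned with either over more than 32 bases.

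The overexpressed gene was checked first. RRM2 stood at 318.3 and 342.6 CPM (counts scaled to a common library total) in LNCaP-EV and at 9291 and 8979 CPM in LNCaP-RRM2, in the direction of the labels. Library totals ranged from 26601061 to 32601519 counts. The LNCaP-EV libraries differed more from each other than the LNCaP-RRM2 libraries did (chi-square per degree of freedom 23.0 and 7.76), and the difference followed base composition: genes in the highest decile of GC content had a median log2 ratio of 0.66 between LNCaP-EV library 1 and library 2, against -0.11 in the lowest decile. The same 2 medians were 0.26 and -0.05 within LNCaP-RRM2, and 0.49 and -0.23 for LNCaP-RRM2 over LNCaP-EV. All 7 luminal prostate markers reported, a list that includes KLK3, were present, with a summed level of 5160 to 5580 CPM in LNCaP-EV and 8528 to 8805 CPM in LNCaP-RRM2. KLK3 alone went from a mean of 2841 CPM to 5113 CPM. TMPRSS2 and ACPP were also higher, while HOXB13, KRT8, KRT18 and FOLH1 were not called by the criteria given below. Of 5 basal cell markers, 3 were in the table and summed to 0.749 to 1.52 CPM in LNCaP-EV and 3.01 to 3.57 CPM in LNCaP-RRM2, while KRT5 and TP63 were not analysed here. Most of the basal sum was KRT14, with means of 0.816 and 2.89 CPM in the 2 groups. KRT15 had means of 0.104 and 0.239 CPM, and NGFR 0.214 and 0.165 CPM. Fibroblast markers (4 of 6 in the table) summed to 7.71 to 11.8 and 25.7 to 34.6 CPM, most of it COL1A1, and neuroendocrine markers (3 of 6) to 23.9 to 24.2 and 29.2 to 31.9 CPM. VWF was the only 1 of 6 blood and endothelial markers in the table, at 6.62 to 11.3 CPM. The part of these shifts in the results was not tested, and in bulk RNA fewer cells of a type and less RNA per cell cannot be told apart.

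KLK3 and KLK15 rose in LNCaP-RRM2 and KLK4 fell, while KLK2 was higher by less than the fold limit and KLKP1 did not pass the test. Of the 7 members, 5 passed the low-count filter, and 2 of these were called higher (edgeR quasi-likelihood test, with a fold change above 1.5 and a Benjamini-Hochberg adjusted p below 0.05) beside 12.5% of all 15162 genes tested. In the other direction 1 was called lower, beside 7.96% of all genes. For 3 of the 5 members the LNCaP-RRM2 libraries both exceeded the LNCaP-EV libraries (34.5% of all genes did so), and for 1 both were below (40.9% of all genes). The median log2 fold change was 0.38 over the 5 members and -0.03 over all genes. The plot of CPM by gene shows how far apart in level the members lay.

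**Figure D1:**
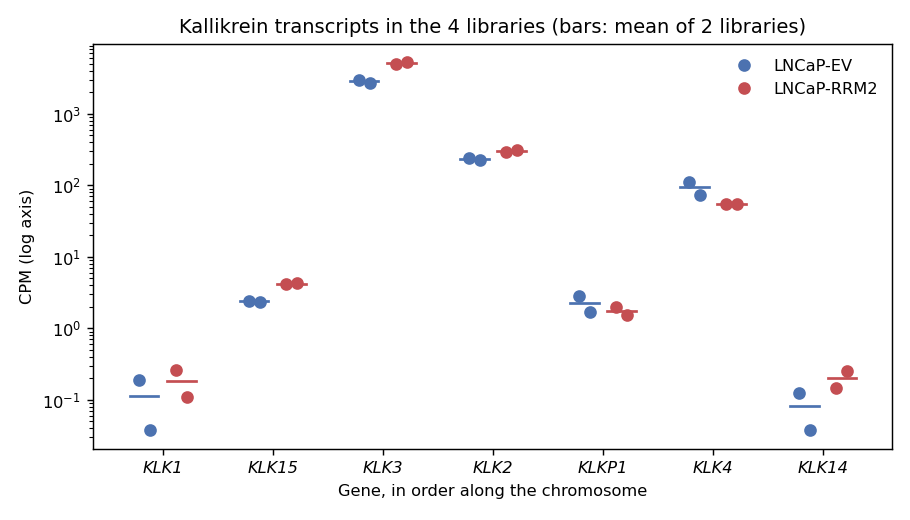
CPM (log axis) of the 7 kallikrein genes in order along the chromosome, with 1 point per library and a bar at the mean of the 2 LNCaP-EV (blue) and 2 LNCaP-RRM2 (red) libraries. KLK3 reached 5251 CPM, KLK1 and KLK14 stayed below 0.3 CPM, and the red points lay above the blue ones for KLK15, KLK3, KLK2 and KLK14 and below them for KLK4.

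KLK3 was the most abundant member. It lies at chr19:50854915-50860764 on the plus strand and had 94055 and 72293 counts in the LNCaP-EV libraries and 135019 and 143155 in LNCaP-RRM2. Scaled, these were 2975 and 2706 CPM against 4976 and 5251 CPM, and the groups did not overlap. The means were 2841 ± 190.8 and 5113 ± 194.3 CPM (SD, n = 2), a 1.80-fold rise. The log2 fold change of KLK3 was 0.85 (standard error, SE, 0.09) with a 95% interval from 0.63 to 1.07 (edgeR, Benjamini-Hochberg adjusted p = 0.00327). KLK3 was still called with each library left out in turn and with the GC trend removed, where its log2 fold change was 0.67.

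KLK2, human glandular kallikrein 2, is a trypsin-like enzyme that can cut the KLK3 proenzyme in vitro, and its gene follows KLK3 on the same strand (chr19:50873433-50880567). It had 240.2 and 225.6 CPM in LNCaP-EV and 293.8 and 313.9 CPM in LNCaP-RRM2. The groups did not overlap, but the 1.30-fold difference was under the fold limit, with a log2 fold change of 0.38 (SE 0.07, edgeR, Benjamini-Hochberg adjusted p = 0.0110). Its 95% interval, from 0.21 to 0.56, lay below that of KLK3. Without LNCaP-RRM2 library 1 or 2 the log2 fold change of KLK2 was 0.43 and 0.33, and neither fit reached the adjusted p threshold. KLK3 had 12.4 and 12.0 counts for each KLK2 count in LNCaP-EV, against 16.9 and 16.7 in LNCaP-RRM2, a difference between the genes for which no test was run. The reference transcripts of the 2 genes were 82.7% identical over 1437 aligned bases. Exact sharing was rarer: 11 of 1414 windows of 50 bases in the KLK3 transcript also occurred in KLK2, and none occurred in any other gene. With the counts of KLK2 and KLK3 added up, the log2 fold change was 0.82 (edgeR, Benjamini-Hochberg adjusted p = 0.00349).

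KLK15, whose product can also activate the KLK3 proenzyme in vitro, lies on the other side of KLK3 on the minus strand (chr19:50825289-50831523). Its counts were low, 77 and 63 in LNCaP-EV, against 112 and 116 in LNCaP-RRM2. In CPM these were 2.44 and 2.36 against 4.13 and 4.25, so each group was tight and the groups did not overlap. KLK15 rose 1.75-fold, with a log2 fold change of 0.80 (SE 0.16, 95% interval 0.40 to 1.21, edgeR, Benjamini-Hochberg adjusted p = 0.0146). The number of KLK3 counts per KLK15 count was 1221 and 1148 in LNCaP-EV, against 1206 and 1234 in LNCaP-RRM2, ranges that overlapped. An uncharacterised gene on the plus strand, LOC105372441, overlaps the start of KLK15 and had at most 0.337 CPM, and whether counting used strand is not stated. The KLK15 call was lost with the Wald test of DESeq2 (adjusted p = 0.0528 after Benjamini-Hochberg adjustment), and in edgeR without LNCaP-RRM2 library 1 or 2 (Benjamini-Hochberg adjusted p = 0.111 and 0.105) and with the GC trend removed together with a replicate block, where the log2 fold change of 0.58 was just under the limit.

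KLK4, a trypsin-like kallikrein known for degrading enamel matrix in developing teeth and also made in the prostate, was the member that fell. It lies at chr19:50906352-50910738 on the minus strand and had 3576 and 1972 counts in LNCaP-EV, against 1500 and 1489 in LNCaP-RRM2. The 2 LNCaP-EV libraries, at 113.1 and 73.8 CPM, were far apart, whereas the LNCaP-RRM2 libraries, at 55.3 and 54.6 CPM, were close together and below both. KLK4 was 1.70-fold lower in LNCaP-RRM2, with a log2 fold change of -0.77 (SE 0.20, 95% interval -1.27 to -0.27, edgeR, Benjamini-Hochberg adjusted p = 0.0296). The call was lost when any 1 library other than LNCaP-EV library 2 was left out. Without LNCaP-EV library 2 the log2 fold change was -0.95. Without LNCaP-EV library 1 the log2 fold change was -0.42, under the fold limit, and without LNCaP-RRM2 library 1 or 2 the value stayed at -0.78 and -0.76 but was not called (edgeR, Benjamini-Hochberg adjusted p = 0.127 and 0.120). The GC content of its transcript was 61.0%, and the log2 ratio of LNCaP-EV library 1 to library 2 was 0.62. With the GC trend removed the log2 fold change of KLK4 was -1.22. It was negative under every alternative run.

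KLKP1, a transcribed pseudogene between KLK2 and KLK4 (chr19:50882096-50896398, minus strand), had 91 and 46 counts in LNCaP-EV, against 54 and 42 in LNCaP-RRM2. Its 2.88 and 1.72 CPM against 1.99 and 1.54 CPM overlapped, and its log2 fold change of -0.39 (SE 0.31, 95% interval -1.18 to 0.39) did not pass the test (edgeR, Benjamini-Hochberg adjusted p = 0.350). Without LNCaP-EV library 1 it was 0.04. KLK1, tissue kallikrein, which releases kinins from kininogen, had 6, 1, 7 and 3 counts across the 4 libraries. KLK14, a trypsin-like member at the far end of the row, had 4, 1, 4 and 7. Neither passed the low-count filter, so at this depth whether they differed was not assessed in the main comparison. The plot of the 5 tested members under each processing shows how far each estimate moved.

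**Figure D2:**
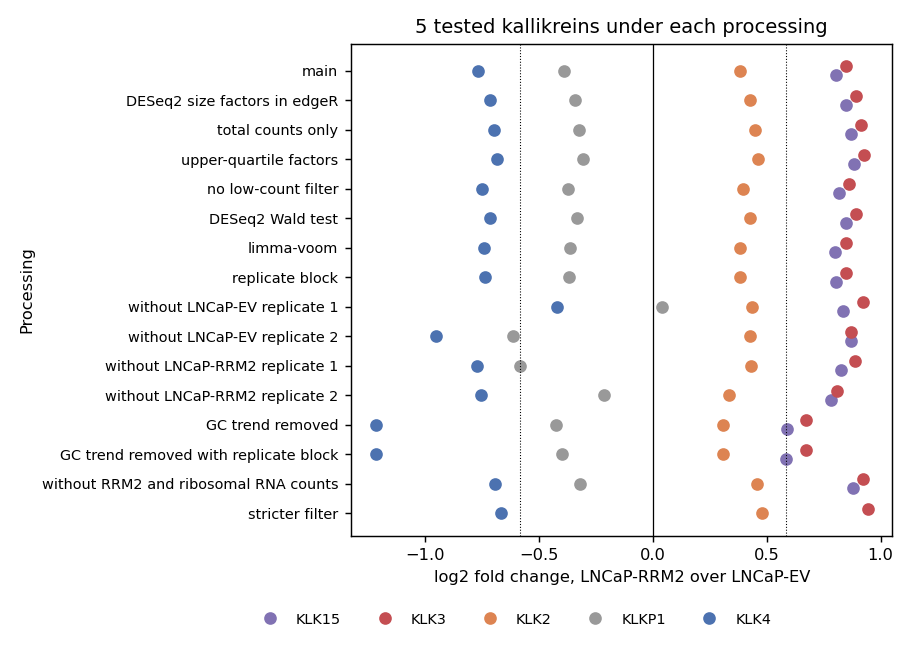
log2 fold change (LNCaP-RRM2 over LNCaP-EV) of the 5 tested kallikreins under each processing, 1 row per processing, with dotted lines at the 1.5-fold limit. KLK3 stayed to the right of the upper line in every row, KLK2 between 0 and that line, and KLK4 ranged from -1.22 to -0.42, while KLKP1 crossed 0 without LNCaP-EV library 1.

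With KLK3 higher and KLK4 lower, the make-up of the cluster's RNA shifted. The 7 genes together took 0.323% and 0.296% of all counts in LNCaP-EV, against 0.544% and 0.577% in LNCaP-RRM2. Their summed level went from 3172 ± 230.0 to 5479 ± 207.8 CPM (SD, n = 2), a ratio of 1.73. KLK3 supplied 89.2% and 89.9% of the kallikrein counts in LNCaP-EV, against 93.3% in each LNCaP-RRM2 library, so its own rise carried most of the sum. The share of KLK2 was 7.20% and 7.50% against 5.51% and 5.58%, and that of KLK4 3.39% and 2.45% against 1.04% and 0.971%. For each KLK4 count there were 26.3 and 36.7 KLK3 counts in LNCaP-EV, against 90.0 and 96.1 in LNCaP-RRM2. Counts depend on transcript length: per kilobase of the reference transcript the level of KLK3 was 1942 ± 130.4 CPM per kilobase in LNCaP-EV, that of KLK2 77.2 ± 3.43 and that of KLK4 69.4 ± 20.6 (SD, n = 2), so the last 2 did not differ beyond their spread. In LNCaP-RRM2 the same quantities were 3495 ± 132.8, 100.6 ± 4.71 and 40.8 ± 0.350 CPM per kilobase, and KLK2 stood above KLK4 in both libraries. KLK15 (2.80 ± 0.0646 and 4.90 ± 0.105) and KLKP1 (2.04 ± 0.727 and 1.57 ± 0.283) were far lower in both groups, on the same scale.

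The genes around the cluster were compared to see whether the difference reached past it. Within 500 kb on either side the table held 23 other genes, of which 15 were tested, and the median log2 fold change was 0.22. SYT3, a synaptotagmin gene, was the only one of the 15 called in the main comparison, beside 12.5% of all genes called higher and 7.96% lower. It had 0 and 3 counts in LNCaP-EV against 16 and 19 in LNCaP-RRM2, 13.1 times more per total count with an exact 95% counting interval from 4.13 to 66.5. That call was lost without LNCaP-RRM2 library 1 or 2 (edgeR, Benjamini-Hochberg adjusted p = 0.0951 and 0.103). The nearest tested gene before the cluster, C19orf48, had 348.7 and 197.6 CPM in LNCaP-EV and 211.0 and 194.7 CPM in LNCaP-RRM2, so LNCaP-EV library 1 stood above the other 3, and it was called lower without LNCaP-EV library 2 and with the GC trend removed, at log2 fold changes of -0.69 and -0.77. The nearest one after it, CTU1, which modifies transfer RNA, had a log2 fold change of 0.07 (SE 0.27). With the GC trend removed that of CTU1 was -0.67, not called, and with a replicate block added it was -0.65 and called lower (edgeR, Benjamini-Hochberg adjusted p = 0.0868 and 0.0356). In the main comparison neither gene was called (edgeR, Benjamini-Hochberg adjusted p = 0.221 and 0.858). Without LNCaP-EV library 1 the number of neighbours called higher was 7, beside 19.8% of all genes in that comparison. The plot of changes along the chromosome sets the members beside these neighbours.

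**Figure D3:**
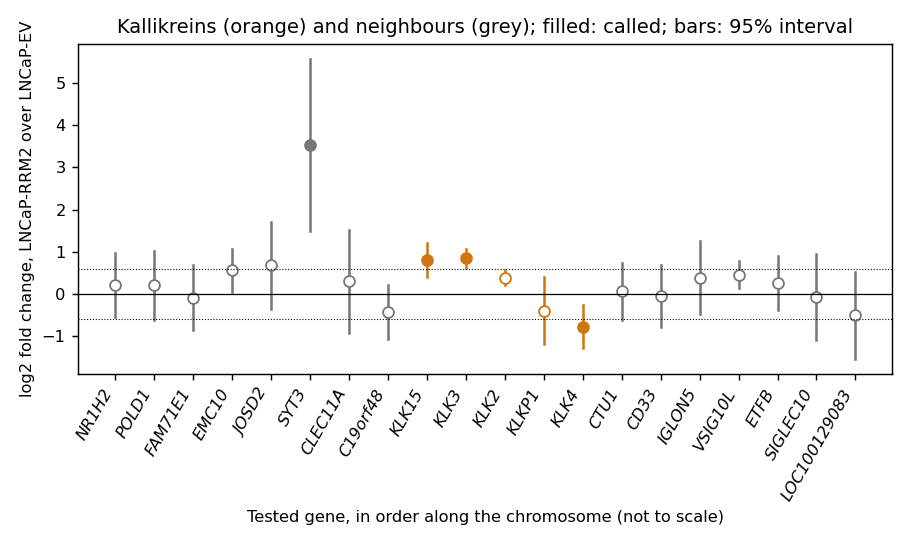
log2 fold change (LNCaP-RRM2 over LNCaP-EV) with 95% interval of the 5 tested kallikreins (orange) and 15 tested neighbours (grey) in chromosomal order, filled where called, with dotted lines at the 1.5-fold limit. KLK15 and KLK3 sat above the upper line and KLK4 below the lower one, KLK2 and KLKP1 lay between the lines, and SYT3 was the filled grey point.

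Over genes whose mean reached 50 CPM, the pattern over the 4 libraries most like that of KLK3 was that of FXYD3, followed by BSCL2 and PLEKHH1. Their root mean square distances from KLK3 in centred log2 CPM were 0.021, 0.024 and 0.024, out of 4928 genes compared. FXYD3 had 44.8 and 40.9 CPM in LNCaP-EV and 73.7 and 77.1 CPM in LNCaP-RRM2. The patterns nearest to KLK2 were those of VOPP1, STK36 and VKORC1, at distances of 0.0045, 0.011 and 0.018. With 4 libraries, many genes can come this close.

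TMPRSS2, HPN, PRSS8 and ST14, which encode membrane-bound serine proteases that can cleave the proenzymes of other proteases, rose. Of the 6 tested genes on the list of possible kallikrein activators, 4 were called higher and 0 lower, beside 12.5% and 7.96% of all genes, and the median log2 fold change was 1.20 (-0.03 over all genes). TMPRSS2, itself an androgen-induced gene, had 396.0 and 375.2 CPM in LNCaP-EV and 905.3 and 897.3 CPM in LNCaP-RRM2, a 2.34-fold rise (edgeR, Benjamini-Hochberg adjusted p = 0.00176). HPN, which encodes hepsin, had 85.2 and 48.5 CPM against 190.2 and 146.1 CPM. PRSS8, which encodes prostasin, had 49.9 and 25.5 CPM against 143.9 and 126.0 CPM, and ST14, which encodes matriptase, 122.2 and 81.9 CPM against 252.2 and 209.0 CPM. In each of these the groups did not overlap, and the log2 fold changes were 1.33, 1.84 and 1.17 (edgeR, Benjamini-Hochberg adjusted p = 0.0158, 0.00870 and 0.00938). HPN, PRSS8 and ST14 transcripts had GC contents of 63.7%, 62.7% and 62.8%, and their log2 ratios between LNCaP-EV library 1 and library 2 were 0.81, 0.97 and 0.58. With the GC trend removed they were still called, at log2 fold changes of 0.78, 1.34 and 0.65. Without LNCaP-RRM2 library 1 the log2 fold changes of HPN, PRSS8 and ST14 were 1.13, 1.74 and 1.03. Without library 2 they were 1.51, 1.93 and 1.30, and TMPRSS2 was at 1.22 and 1.23 in these fits. HPN lost its call in both, and PRSS8 and ST14 lost theirs without library 1. Calls of higher genes over the whole table also fell in both fits, each of which leaves 1 LNCaP-RRM2 library.

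Of 5 tested inhibitor genes, 3 were called higher and 0 lower, beside 12.5% and 7.96% of all genes. SERPINA1, the gene of alpha-1 antitrypsin, rose from 0.285 and 0.187 CPM to 3.17 and 3.67 CPM, a low level in both groups (log2 fold change 3.81, SE 0.29). SPINT1 and SPINT2, the Kunitz-type inhibitors of hepsin and matriptase, rose 1.86-fold and 1.79-fold, SPINT2 from 290.6 and 258.4 CPM to 499.2 and 481.4 CPM. Adjusted p-values were 0.00244 for SERPINA1, 0.00404 for SPINT1 and 0.00293 for SPINT2 (edgeR with Benjamini-Hochberg correction). With the GC trend removed the log2 fold change of SPINT1 was 0.45, under the fold limit. SERPINA3, alpha-1 antichymotrypsin, which binds prostate-specific antigen in blood, had 3.10 and 1.57 CPM in LNCaP-EV and 3.17 and 4.44 CPM in LNCaP-RRM2 and was not called (edgeR, Benjamini-Hochberg adjusted p = 0.171). Without LNCaP-EV library 1 it was, at a log2 fold change of 1.28.

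Genes of proteins that kallikreins can cleave moved in both directions, with 7 of 12 tested called higher and 3 lower, beside 12.5% and 7.96% of all genes. Without LNCaP-RRM2 library 1 these were 4 and 1, beside 2.39% and 1.54% of all genes, and without library 2 the number higher was 4, beside 3.55%. The thrombin receptor gene F2R had 15.1 and 14.2 CPM in LNCaP-EV and 37.9 and 37.4 CPM in LNCaP-RRM2, a 2.57-fold rise, and F2RL1, whose product is a receptor opened by trypsin-like proteases, rose 1.72-fold. IGFBP3, which binds insulin-like growth factors and is cut by prostate-specific antigen, fell 2.21-fold, from 68.8 and 77.2 CPM to 32.9 and 33.2 CPM. Adjusted p-values were 0.00233 for F2R, 0.00277 for F2RL1 and 0.00255 for IGFBP3 (edgeR with Benjamini-Hochberg correction). The others called lower, named after their values were seen, were FN1, the fibronectin gene, with a log2 fold change of -0.71, and SEMG1, the semenogelin gene, at 0.411 and 0.487 CPM in LNCaP-EV against 0.147 and 0.0734 CPM in LNCaP-RRM2.

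Transcription factors and coactivators that take part in hormone-induced transcription were listed as well. Of 12 tested genes, 0 were called higher and 1 lower, counts near the 12.5% and 7.96% of all genes, and the median log2 fold change was -0.28. Without LNCaP-EV library 1 the number called higher was 1, beside 19.8% of all genes. NCOA1, a nuclear receptor coactivator, fell 2.01-fold (edgeR, Benjamini-Hochberg adjusted p = 0.00233). FOXA1, a pioneer factor, and HOXB13, a prostate homeobox factor, had log2 fold changes of -0.17 and 0.15, and that of HOXB13 was -0.15 with the GC trend removed. These are RNA levels and not the activity of the proteins.

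Other genes known to be induced by androgen did not all move with KLK3. Of 15 tested, 5 were called higher and 2 lower, beside 12.5% and 7.96% of all genes, the count lower being near that share, and the median log2 fold change was 0.41. ACPP, the prostatic acid phosphatase gene, had 116.5 and 122.2 CPM in LNCaP-EV and 410.5 and 412.8 CPM in LNCaP-RRM2, a 3.45-fold rise (edgeR, Benjamini-Hochberg adjusted p = 0.000921). TMPRSS2, given above, also rose, and STEAP4, SLC45A3 and ABCC4, named after their values were seen, had log2 fold changes of 1.44, 1.02 and 0.63. FKBP5, which encodes a chaperone of steroid receptors, fell 1.88-fold, from 343.3 and 373.8 CPM to 187.3 and 193.8 CPM (edgeR, Benjamini-Hochberg adjusted p = 0.00246). ELL2, a transcription elongation factor gene named after its value was seen, had a log2 fold change of -0.90. The plot of the lists shows each tested gene.

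**Figure D4:**
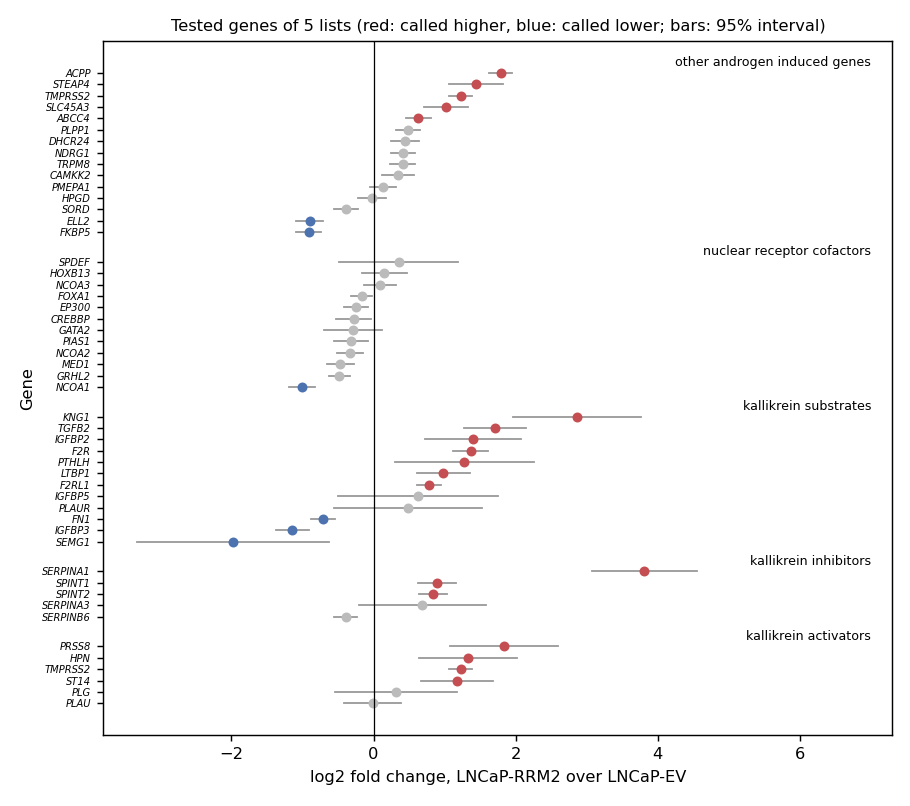
log2 fold change (LNCaP-RRM2 over LNCaP-EV) with 95% interval of the tested genes of 5 lists, red where called higher, blue where called lower and grey otherwise. The activators TMPRSS2, HPN, ST14 and PRSS8 were red, NCOA1 was the 1 blue point among the nuclear receptor cofactors, and the androgen-induced genes ranged from FKBP5 at -0.91 to ACPP at 1.79.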

How the data were processed

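Total RNA of LNCaP cells, an established cell line, was sequenced as paired reads. The titles gave each sample's group and number. Per the study's methods, the authors analysed the reads in Partek Flow, with no version given, and deposited unscaled estimated counts per gene. Aligner, annotation, strand setting and genome build are not stated in the sources used here, and positions matched GRCh38 (1 was subtracted from printed ends, where the table ran 1 past RefSeq). These expected counts were not all whole, as happens when reads are shared between genes, and were rounded before testing. The table held genes with at least 10 counts in total, and 17141 were used.

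Genes were filtered with filterByExpr (15162 left), scaled with TMM factors and compared by the quasi-likelihood F-test of edgeR 4.0.16 (R 4.3.3) without covariates, adjusted by Benjamini-Hochberg over all genes tested. Calls needed an adjusted p below 0.05 and a fold above 1.5, the thresholds of the study. Alternatives used limma 3.58.1, DESeq2 1.42.0, other scaling factors, filters and no fold limit, left out each library or the RRM2 and ribosomal RNA counts, removed a GC trend (GC was known for 94.8% of genes) or added a replicate block. Shares per kilobase of the reference transcript were an alternative chosen after seeing the data. The code was tested on simulated counts. Sequences came from RefSeq (promoters, with 5 of the 7 members matched) and GENCODE (transcripts), and were aligned with Biopython 1.88. No protein sequences were used. Counting intervals cover counting error alone: without molecular identifiers, several reads may stem from 1 molecule.

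The members and the 5 gene lists were chosen with earlier results of these data known. The named genes were all members, RRM2, neighbours within 500 kb, the 3 called genes with the smallest p in each list, FOXA1, HOXB13, HPN, TMPRSS2, FKBP5, IGFBP3 and SERPINA3, and the 3 genes most like KLK3 and KLK2 in pattern. Some genes of the rule and of the lists are not reported here.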

Additional observations from a re-analysis of the deposited data

How the results depend on the processing

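KLK3 kept its direction and its call under every alternative run. Leaving out 1 library gave log2 fold changes from 0.78 to 0.87 for KLK15, from -0.95 to -0.42 for KLK4 and from -0.62 to 0.041 for KLKP1, and 1 to 2 members higher and 0 to 1 lower. Over all genes it gave 362 to 3003 higher and 234 to 1465 lower. For the neighbours it gave 0 to 7 higher and 0 to 1 lower, for the activators 1 to 4 higher, for the substrates 4 to 6 higher and 1 to 3 lower, and for the receptor cofactors 0 to 1 higher. Without a LNCaP-RRM2 library the spread within groups comes from the LNCaP-EV pair alone, and a lone library is assumed to vary like the other group. Leaving out 1 library gave -0.69 to 0.042 for C19orf48, turned without LNCaP-EV library 1, and -0.31 to 0.37 for CTU1, turned without LNCaP-RRM2 library 1.

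KLK15 had a log2 fold change of 0.85 by the DESeq2 Wald test and of 0.58 with the GC trend removed together with a replicate block, and was not called in either. The members called higher then numbered 1, as with the stricter filter (a mean of 5 CPM or more, with 1 CPM reached in 2 libraries), which left KLK15 out. With no fold limit KLK2, at 0.38, was called, and 17.8% of all genes were higher and 24.4% (3695 genes) lower. Under that rule 10 of 15 androgen-induced genes and 2 of 15 neighbours were higher. Lower were 6 of 12 receptor cofactors and 1 of 5 inhibitors, and the counts of neighbours and inhibitors were near the shares of all genes. Summing gave 0.82 for KLK2 with KLK3 and -0.76 for KLKP1 with KLK4. The stricter filter left 612 genes lower and 4 substrates higher, beside 13.7% of all genes higher. The neighbours called higher were 2 with DESeq2 size factors, total counts, upper-quartile factors, the DESeq2 Wald test and without RRM2 and ribosomal RNA. The share of all genes called higher in these ran from 11.8% (DESeq2 Wald test) to 16.3% (upper-quartile factors). With the GC trend removed, 1 neighbour and 2 receptor cofactors were lower, beside 10.5% of all genes, and HOXB13 turned to -0.15 and CTU1 to -0.67. With the replicate block added 3 neighbours and 2 receptor cofactors were lower, beside 10.9% of all genes, and HOXB13 was at -0.15 and CTU1 at -0.65. Calls split into 1899 higher and 1207 lower in the main comparison, 2300 and 878 with total counts, 2475 and 827 with upper-quartile factors, 2420 and 994 with DESeq2 size factors, 2284 and 838 without RRM2 and ribosomal RNA, and 1665 and 1593 with the GC trend removed. Other causes of these moves were not tested.

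Per kilobase of the longest transcript, KLK3 took 87.6% of the kallikrein total in LNCaP-EV and 92.8% in LNCaP-RRM2, KLK2 6.43% and 4.94%, and KLK4 5.73% and 2.00%. Per kilobase of the reference transcript the shares were 92.8% and 95.9% for KLK3 and 3.69% and 2.76% for KLK2, and that of KLK4 in LNCaP-RRM2 was 1.12%.

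The titles number the libraries of each group, but nothing ties library 1 of one group to library 1 of the other. The difference between replicates 1 and 2 correlated at 0.30 between the groups (across 15162 genes, which are not independent replicates). With the replicate block, 2346 genes (15.5%) were higher and 1255 (8.28%) lower, 3 neighbours were higher, and no member gained or lost a call. Depth limits KLK15 and KLKP1, with at most 116 counts in a library, and KLK1 and KLK14, with at most 7.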
